A study of Xenopus tropicalis with 52 samples.

Results

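The genes described here are those whose transcript level in control embryos of *Xenopus tropicalis* peaked at the mid-gastrula stage. They were chosen from the control morpholino (cMO) libraries at stages 10+, 11+ and 12+ (early, mid and late gastrula), with 4 libraries a stage. Exon counts were divided by the library's total and put on the CPM scale, and the libraries of a stage were averaged. Genes with a mean of at least 5 CPM at stage 11+ were kept, and the 150 with the highest ratio of the stage 11+ mean to the larger of the stage 10+ and 12+ means were taken, after 0.5 CPM had been added to each mean. This left 150 of the 28148 genes in the exon files, and 9715 genes had passed the minimum. A symbol was given for 101 of the 150, and the other 49 are known by a gene model ID alone. The rise to stage 11+ and the fall after it in cMO embryos, in exons and in introns, are the choice itself, so they are described and not tested.

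All embryos were whole wild-type embryos of the out-bred Nigerian strain, 10 to 15 per library other than those of nascent RNA. In the T-box experiment, 4x zT LOF embryos had received morpholinos (MOs, antisense oligomers that block translation or splicing) against 4 zygotic T-box transcription factors, with 5 ng for zygotic VegT, 5 ng for *eomes* and 2.5 ng of each MO for the Brachyury genes *t* and *t2*, at the zygote stage. The cMO embryos had received 20 ng of a standard control MO, and each condition was sequenced at stages 10+, 11+ and 12+ with 4 libraries a group. In the signal experiment, embryos were collected at stage 9+ (late blastula) after LOF of canonical Wnt (5 ng of a β-catenin MO), Nodal (100 µM of the receptor inhibitor SB431542) or BMP (10 µM of the receptor inhibitor LDN193189, both inhibitors from the 8-cell stage), after each combination of these, or as DMSO-treated, uninjected controls, with 3 libraries in each of the 8 groups. The controls of this experiment had no injection, so β-catenin LOF and injection as such cannot be told apart there. In addition, nascent RNA was selected from embryos given 75 ng of 4-thiouridine (4sU) at stages 8+ and 10+, with 1 library of a kind per stage.

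Gastrulation is when the germ layers of the frog embryo take their places, as mesoderm and endoderm move inside and ectoderm spreads over the surface. The dorsal lip, or Spemann organizer, secretes antagonists of BMP, Wnt and Nodal ligands, while the ventral side maintains BMP signaling through Ventx homeobox factors and the marginal zone expresses Brachyury, Wnt8 and Fgf pathway genes. Retinoic acid is made from vitamin A by retinaldehyde dehydrogenases and removed by Cyp26 enzymes, and T-box factors are among the main activators of mesoderm genes. Intron reads come mostly from transcripts that have not been spliced, whereas exon reads also count the stored messenger RNA.

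Exon counts per library ran between 26586752 and 60984753 in the T-box experiment and between 27710453 and 45443446 at stage 9+, and intron counts between 1565436 and 4708294 and between 1111752 and 1914882. The MOs act on splicing or translation, so transcript levels check them only in part. At stage 11+ *t2* stood at 4.80% of its cMO level, *t* at 77.2%, *eomes* at 297% and *vegt* at 202%, and *ctnnb1*, which encodes β-catenin, at 91.0% of the control in Wnt LOF embryos at stage 9+. In 4x zT LOF embryos at stage 12+ the summed level of 3 muscle genes lay between 9.51 and 35.2 CPM, against 172.5 to 336.5 CPM in cMO embryos, and that of 6 mesoderm genes, of which *t* and *wnt8a* are members, between 571.9 and 728.5 CPM at stage 11+, against 838.4 to 1146 CPM in cMO embryos. Sums of 5 endoderm genes lay between 1082 and 1277 CPM at stage 11+, against 1333 to 1446 CPM in cMO embryos, of 6 ectoderm genes between 3080 and 3431 CPM at stage 12+, against 2394 to 2759 CPM, and of 4 adult liver and ovary genes between 123.9 and 151.9 CPM at stage 12+, against 56.8 to 82.2 CPM. At stage 12+ the conditions overlapped for mesoderm (710.8 to 959.5 CPM, against 717 to 1013 CPM in cMO embryos) and endoderm (1002 to 1242 CPM, against 948.3 to 1066 CPM). The mesoderm sum includes *t* and *t2*, both targets of the MOs, and *t* made up most of it at stage 12+. There *t* had a mean of 706 CPM in 4x zT LOF and 476 CPM in cMO embryos, and *t2* 13.1 and 109.6 CPM. The overlap of the sum therefore does not hold for each of its genes. At stage 11+ they overlapped for ectoderm (2314 to 2586 CPM, against 2251 to 2736 CPM) and 6 organizer genes (930.2 to 1213 CPM, against 1007 to 1291 CPM). The sum of 6 neural plate genes at stage 11+ lay between 1709 and 1939 CPM, against 1466 to 1689 CPM. The part of these differences in the results below was not tested, and in whole embryos fewer cells of a type and less RNA per cell cannot be told apart.

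The ratio that chose the members lay between 1.29 and 3.45, with a median of 1.43, and reached 2 for 8 genes and 1.5 for 55. The highest ratio was that of *cer1* (3.45), which encodes the secreted antagonist Cerberus, followed by *gemc1* (3.04), a regulator of multiciliated cells, *mmp1* (2.89), a matrix metalloproteinase, and *arx* (2.43), a homeobox factor. Just inside the threshold stood *anp32c* (1.291), *tfap2a* (1.290) and *zbed1* (1.289), and just outside *ankrd37* (1.289), *plekho1* (1.287) and *klf2* (1.285), so the edge of the set is arbitrary. Stage 11+ means ran between 5.46 and 2832 CPM with a median of 60.1 CPM, and members with a symbol were more abundant (median 120 CPM) than those without (26.2 CPM). In 85 members the early gastrula level was above the late gastrula level, and in 65 it was below. All 4 cMO libraries at stage 11+ stood above the other 8 cMO libraries for 91 of the 150. These libraries chose the members and the share of all genes was not computed, so nothing is read from this count. The choice depends on how libraries are scaled: with DESeq2's size factors in place of library totals, 95 of the 150 were chosen again, and leaving out each replicate in turn kept 130 to 139.

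By position in the RefSeq annotation (assembly UCB_Xtro_10.0, used for gene order only), 99 members could be placed, and 3 pairs were direct neighbours: *ventx1.1* and *ventx2.1*, *pnhd* and *admp*, and *acer1* and *anp32c*. Members without a symbol were not placed, so pairs that include them are not among the 3. Some of them have a gene model ID next to that of another member, so the set may hold more neighbours. Reads were counted without strand, so neighbours and close paralogs such as the *ventx* genes may share reads and their single values are uncertain. No member belonged to the lists of Notch, Hox and caudal, muscle, cell cycle, p53 or germ plasm genes. The lists of Wnt genes and of BMP and ventral mesoderm genes held 5 members each, as did neural plate and neural crest genes, and paraxial mesoderm genes held 4.

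**Figure D1:**
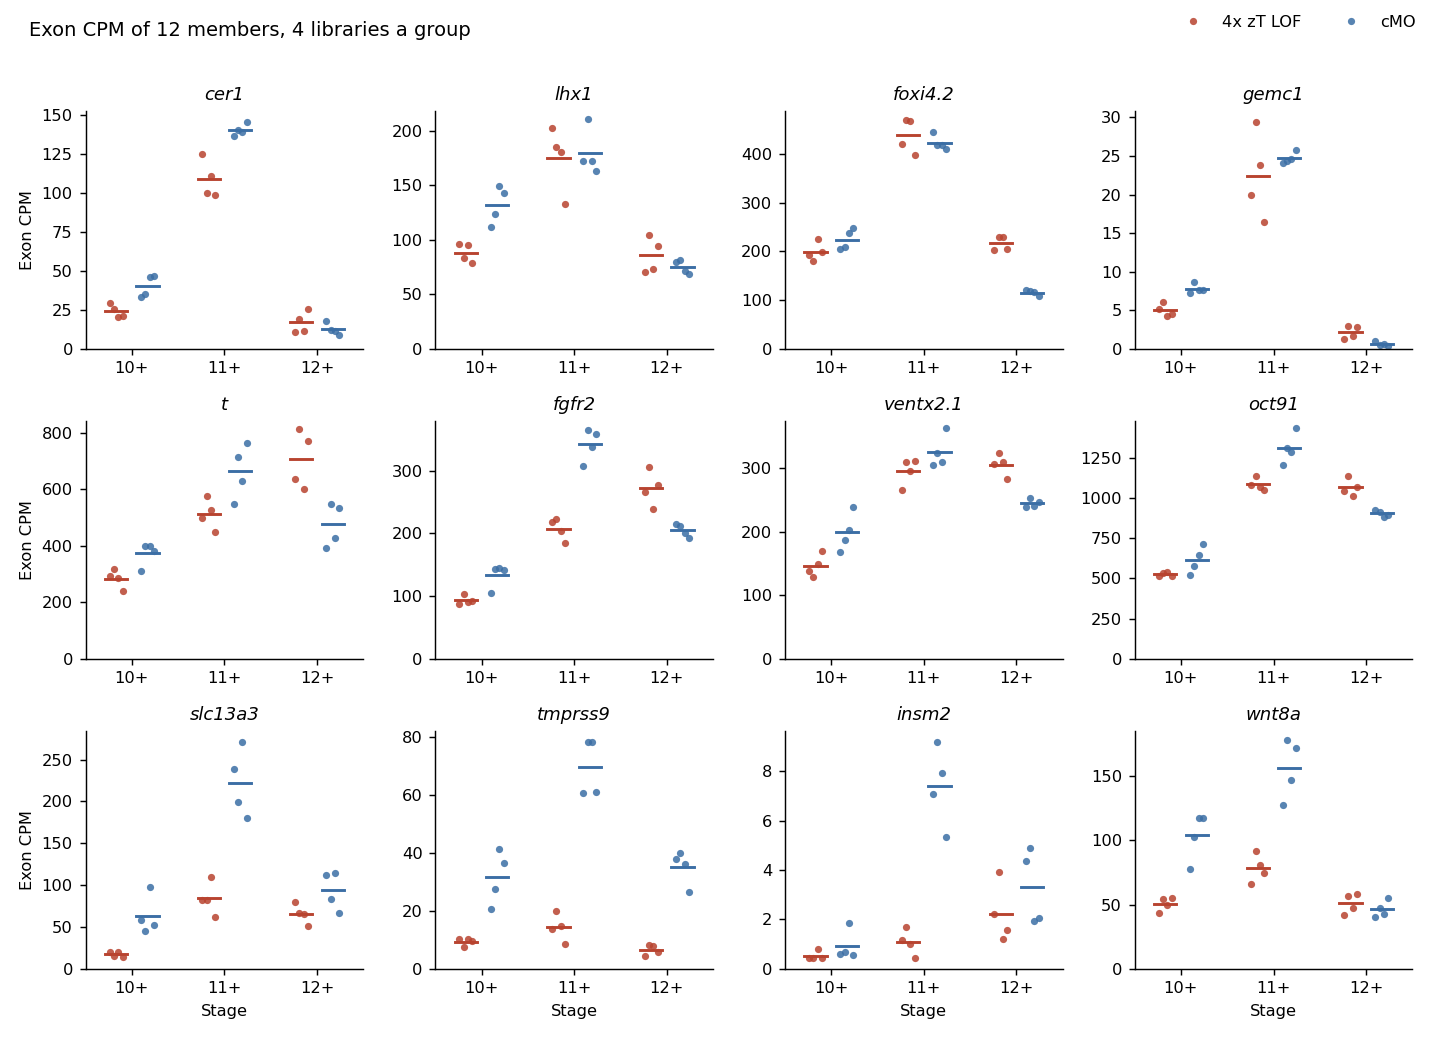
Exon CPM (vertical axes, linear, starting at 0) of 12 members at stages 10+, 11+ and 12+ (horizontal axes). Each point is 1 library and each bar the mean of 4, with 4x zT LOF left of cMO; *cer1*, *lhx1*, *foxi4.2* and *gemc1* are highest at stage 11+ in both conditions, whereas *t* and *fgfr2* have their highest 4x zT LOF mean at stage 12+ (*t* 706 CPM, against 476 CPM in cMO embryos).

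The stage course was then asked of the 12 4x zT LOF libraries, which the choice had not used. All 150 members passed the filter on low counts there. Compared with stage 10+, 124 members were higher at stage 11+ and 0 lower, against 26.3% and 25.2% of the 16348 genes tested, and the median log2 fold change of the members was 0.96, against 0.02 over all genes (edgeR quasi-likelihood test, Benjamini-Hochberg adjusted p of at most 0.1, as in all calls below). Compared with stage 12+, 36 members were higher at stage 11+ and 35 lower, against 37% and 36% of all genes (72.9% either way), with a median of 0.14, against 0.03 over all genes. The rise to mid-gastrula was therefore seen in most members after T-box LOF, while the decline toward late gastrula was seen in a share no larger than among all genes. Higher in both contrasts, and so a peak at stage 11+, were 33 members (22.0%), against 2.43% of all genes.

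With the replicate number as a block, 61 members were higher and 48 lower at stage 11+ than at stage 12+, against 42.2% and 40.5% of all genes, and the peak was called in 52, against 5.32% of all genes. The 4x zT LOF and cMO libraries of 1 replicate number deviate together, so these libraries are not wholly independent of those that chose the members, and nothing says that replicates came from separate crosses: p-values measure the spread between these libraries, which may be technical. With factors from all 24 libraries of the T-box experiment, before the filter on low counts, scaling by TMM moved the median of all genes on the log2 scale. Relative to library totals, it moved by 0.11 (stage 11+ over 10+) and by −0.16 (stage 11+ over 12+). In the fit of the 12 libraries the shift over stage 12+ was larger. There *oct91* had means of 1085 and 1067 CPM at stages 11+ and 12+, but a log2 fold change of −0.24.

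The members fell into classes by these tests. Besides the 33 with a peak, 58 were called higher than at stage 10+ only, 33 were called higher than at stage 10+ and still lower than at stage 12+, 3 were called higher than at stage 12+ only, and 23 were called higher in neither. Some members called lower than at stage 12+ had the higher mean CPM at stage 11+, such as *pnhd* (185 and 181 CPM at stages 11+ and 12+) and *irx2* (85.1 and 82.2 CPM). CPM uses library totals, so for these the direction rests on the scaling by TMM. Apart from the peak, shares of all genes in these classes were not computed. Of the 101 members with a symbol 96 were higher than at stage 10+, and of the 49 without 28 were. In CPM, the 4x zT LOF mean was highest at stage 11+ for 115 members, at stage 12+ for 34 and at stage 10+ for 1, and the same shares of all genes were not computed. All 4 libraries at stage 11+ stood above the other 8 for 41 members, against 1.06% of all genes. The ratio used for the choice had a median of 1.17 over the members in 4x zT LOF embryos and 1.43 in cMO embryos, and of 0.756 over the 9968 genes that reached the minimum in 4x zT LOF embryos. The cMO median comes from the values that chose the members and is high by that choice. Nothing is therefore read from the difference between the conditions.

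**Figure D2:**
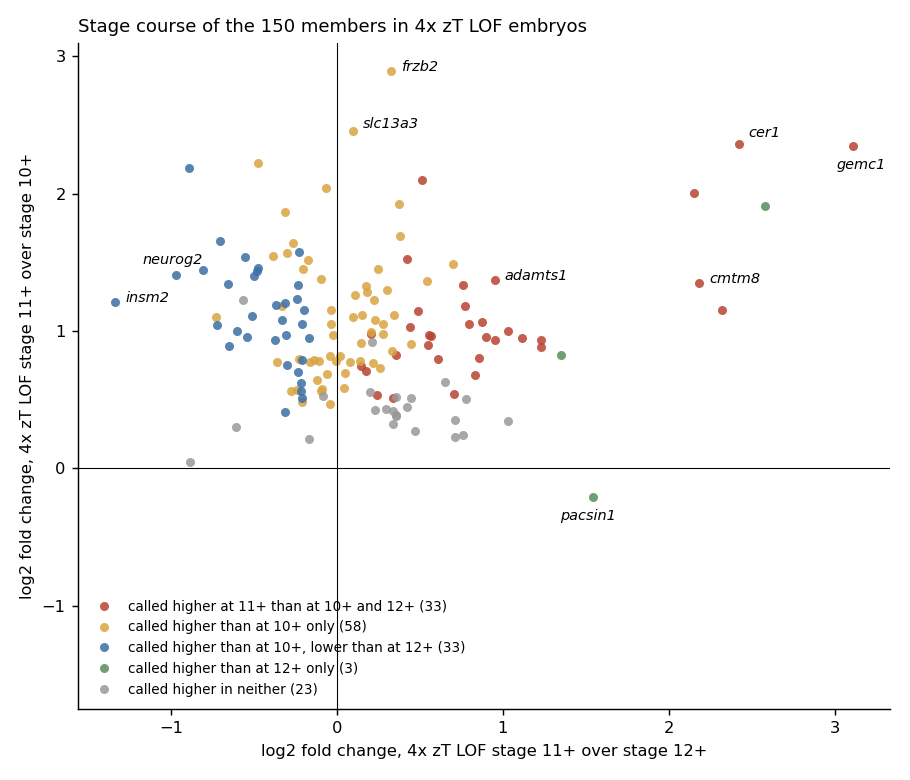
Log2 fold changes between stages in 4x zT LOF embryos for the 150 members, with stage 11+ over 12+ on the horizontal and stage 11+ over 10+ on the vertical axis (4 libraries a stage); each point is 1 gene, coloured by the tests passed. Nearly all points lie above 0 on the vertical axis (149 of 150), and they spread to both sides of 0 on the horizontal axis.

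Among the secreted factors and transcription factors of the organizer, *cer1*, *lhx1* and *admp* kept the peak. *cer1* had 29.4, 25.5, 20.1 and 21.3 CPM at stage 10+, 125, 100.2, 111 and 98.8 CPM at stage 11+ and 10.8, 19.4, 11.7 and 25.8 CPM at stage 12+ in 4x zT LOF embryos. In cMO embryos it had 33.5, 35.3, 46.0 and 46.9 CPM at stage 10+, 137, 141, 139 and 146 CPM at stage 11+ and 17.8, 12.1, 11.6 and 8.57 CPM at stage 12+. All 4 stage 11+ libraries stood far above the others in both conditions, and the 4x zT LOF libraries lay below the cMO libraries at stages 10+ and 11+ and overlapped them at stage 12+. Within 4x zT LOF embryos the log2 fold change of stage 11+ over stage 10+ was 2.36 ± 0.26 (SE; edgeR adjusted p = 1.55e-05), and over stage 12+ 2.42 ± 0.26 (edgeR adjusted p = 3.37e-06).

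The LIM homeobox gene *lhx1*, which is needed in the organizer for head formation, had 96.0, 83.2, 95.4 and 78.3 CPM at stage 10+, 202, 185, 180.3 and 133 CPM at stage 11+ and 70.2, 104, 73.4 and 94.3 CPM at stage 12+ in 4x zT LOF embryos. The lowest stage 11+ library (133 CPM) was still above the highest of the other stages (104 CPM), and the log2 fold changes were 1.18 ± 0.16 over stage 10+ and 0.77 ± 0.16 over stage 12+ (edgeR adjusted p = 7.33e-05 and 8.15e-04). *admp*, a BMP-type ligand made in the organizer, had 79.3, 115, 64.6 and 106 CPM at stage 10+, 146, 145, 107 and 116 CPM at stage 11+ and 48.2, 80.4, 44.0 and 66.7 CPM at stage 12+ in 4x zT LOF embryos. Its stage 11+ libraries overlapped those of stage 10+, and the rise over stage 10+ (log2 fold change 0.68 ± 0.22, edgeR adjusted p = 0.0258) was lost without replicate 1 (0.55), whereas the difference to stage 12+ was 0.83 ± 0.22 (edgeR adjusted p = 0.00535). *frzb2*, which encodes a secreted Frizzled-related Wnt inhibitor, had 10.3, 9.52, 6.34 and 5.81 CPM at stage 10+, 66.5, 58.1, 47.3 and 36.5 CPM at stage 11+ and 35.3, 43.3, 26.2 and 33.5 CPM at stage 12+ in 4x zT LOF embryos. It had the largest rise over stage 10+ of all members (log2 fold change 2.89 ± 0.26, edgeR adjusted p = 3.51e-06) but was not called against stage 12+ (0.33 ± 0.24, edgeR adjusted p = 0.241), where the blocked fit called it higher at stage 11+ (edgeR adjusted p = 0.0379). Over the list of 43 Nodal and organizer genes, 13 were higher and 17 lower at stage 11+ than at stage 10+, and 25 higher and 11 lower than at stage 12+.

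Of the 5 members on the list of BMP and ventral mesoderm genes, *admp* was called higher at stage 11+ than at stage 12+ and the other 4 lower. *szl* encodes Sizzled, a feedback inhibitor of the proteinases that cleave Chordin, and the 3 *ventx* members encode homeobox repressors downstream of BMP. *szl* had 21.1, 24.5, 34.0 and 21.8 CPM at stage 10+, 46.2, 78.5, 90.5 and 63.6 CPM at stage 11+ and 82.3, 79.5, 116 and 102 CPM at stage 12+ in 4x zT LOF embryos. In cMO embryos it had 25.5, 25.6, 41.6 and 32.8 CPM at stage 10+, 51.6, 80.4, 88.4 and 114 CPM at stage 11+ and 49.1, 55.3, 57.6 and 66.9 CPM at stage 12+. In 4x zT LOF embryos stage 11+ and 12+ libraries overlapped and the test called stage 11+ lower, with log2 fold changes of stage 11+ of 1.65 ± 0.21 over stage 10+ and −0.70 ± 0.21 over stage 12+ (edgeR adjusted p = 5.22e-05 and 0.00883).

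*ventx1.2* had 65.8, 64.4, 73.8 and 74.0 CPM at stage 10+, 113, 157, 143 and 141 CPM at stage 11+ and 129, 154, 151 and 161 CPM at stage 12+ in 4x zT LOF embryos, against 89.1, 95.3, 112 and 123 CPM at stage 10+, 145, 189.9, 165 and 196 CPM at stage 11+ and 97.4, 113, 105 and 99.4 CPM at stage 12+ in cMO embryos. All 4 libraries at stage 11+ stood above stage 10+ in each of the 3 *ventx* genes in 4x zT LOF embryos, and overlapped those of stage 12+. Over stage 12+ the log2 fold changes were −0.60 ± 0.12, −0.37 ± 0.10 and −0.31 ± 0.08 for *ventx1.1*, *ventx1.2* and *ventx2.1* (edgeR adjusted p = 7.63e-04, 0.00536 and 0.00439), and over stage 10+ 1.00 ± 0.12, 1.19 ± 0.10 and 1.203 ± 0.08. The test thus called all 3 higher than at stage 10+ and lower than at stage 12+. Mean CPM of *ventx2.1* was close at stages 11+ and 12+ (296 and 306 CPM), so its call against stage 12+ rests largely on the scaling by TMM. Of 44 BMP and ventral mesoderm genes tested, 26 were higher and 7 lower at stage 11+ than at stage 10+, and 6 higher and 35 lower than at stage 12+.

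In the mesoderm group, *wnt8a* and *rspo2* kept a small peak while *t* did not. *wnt8a* encodes a Wnt ligand of the ventrolateral marginal zone, and had 43.3, 54.0, 49.3 and 54.8 CPM at stage 10+, 65.6, 91.8, 80.8 and 74.5 CPM at stage 11+ and 41.9, 56.7, 47.0 and 58.0 CPM at stage 12+ in 4x zT LOF embryos, against 77.7, 103, 118 and 117 CPM at stage 10+, 128, 178, 147 and 171 CPM at stage 11+ and 40.2, 47.0, 43.0 and 54.9 CPM at stage 12+ in cMO embryos. The 4x zT LOF libraries at stages 10+ and 11+ lay below every cMO library of the same stage, and those at stage 12+ overlapped. Over stage 10+ the log2 fold change was 0.83 ± 0.13 and over stage 12+ 0.35 ± 0.13 (edgeR adjusted p = 2.86e-04 and 0.0307), and without replicate 3 the second was 0.29 and no longer called. *rspo2*, a secreted amplifier of Wnt signaling, had 3.297, 2.19, 2.62 and 1.72 CPM at stage 10+, 10.0, 7.85, 10.9 and 8.22 CPM at stage 11+ and 4.71, 4.95, 5.13 and 6.82 CPM at stage 12+ in 4x zT LOF embryos, with 2.101 ± 0.22 over stage 10+ and 0.51 ± 0.21 over stage 12+ on the log2 scale (edgeR adjusted p = 1.17e-05 and 0.0452). The second of these was not called without replicate 1 (0.42) or replicate 3 (0.39).

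*t*, the Brachyury gene and itself a target of the MOs, had 292, 319, 285 and 239.7 CPM at stage 10+, 499.6, 575, 526 and 449 CPM at stage 11+ and 638, 813, 602 and 771 CPM at stage 12+ in 4x zT LOF embryos. In cMO embryos it had 312, 398, 399 and 381 CPM at stage 10+, 547, 716, 631 and 763 CPM at stage 11+ and 391, 549, 427 and 535 CPM at stage 12+. Every 4x zT LOF library at stage 12+ stood above every one at stage 11+, and the log2 fold change of stage 11+ over 12+ was −0.73 ± 0.12 (edgeR adjusted p = 2.03e-04), against 1.04 ± 0.13 over stage 10+ (edgeR adjusted p = 3.25e-05). Of 35 paraxial mesoderm and segmentation genes, 26 were higher and 1 lower at stage 11+ than at stage 10+, and 5 higher and 24 lower than at stage 12+. Of 37 Wnt genes, 20 were higher and 6 lower than at stage 10+, and 11 higher and 21 lower than at stage 12+.

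The retinoic acid genes *aldh1a2* and *cyp26a1* were called higher than at stage 10+ in 4x zT LOF embryos, and neither was called higher than at stage 12+. *aldh1a2*, the main enzyme of retinoic acid synthesis in the gastrula, had 281, 270.0, 285 and 272 CPM at stage 10+, 473, 466, 545 and 418 CPM at stage 11+ and 429, 545, 446 and 539.6 CPM at stage 12+ in 4x zT LOF embryos. Stage 11+ and 12+ libraries overlapped, and the log2 fold change of stage 11+ was 0.97 ± 0.10 over stage 10+ (edgeR adjusted p = 1.04e-05) and −0.31 ± 0.10 over stage 12+ (edgeR adjusted p = 0.015), which was lost without replicate 2 (−0.22) or replicate 4 (−0.18). Mean CPM was close at stages 11+ and 12+ (476 and 490 CPM), so this call too rests largely on the scaling by TMM. *cyp26a1*, which degrades retinoic acid, had 177, 194, 193 and 229.6 CPM at stage 10+, 317, 330.4, 313 and 243 CPM at stage 11+ and 269, 356, 240.5 and 309.9 CPM at stage 12+ in 4x zT LOF embryos, with 0.79 ± 0.14 over stage 10+ (edgeR adjusted p = 4.78e-04) and no call against stage 12+ (−0.23 ± 0.14, edgeR adjusted p = 0.155). By mean CPM *cyp26a1* was the higher at stage 11+ (301 and 294 CPM at stages 11+ and 12+). Of 21 retinoic acid genes tested, 14 were higher and 1 lower at stage 11+ than at stage 10+, and 1 higher and 15 lower than at stage 12+.

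The Fgf receptor genes *fgfr2* and *fgfr4*, whose products pass Fgf signals to the Erk kinases, were called higher than at stage 10+ and lower than at stage 12+. *fgfr2* had 87.5, 104, 90.04 and 91.8 CPM at stage 10+, 217, 223, 204 and 184 CPM at stage 11+ and 266, 306, 239 and 277 CPM at stage 12+ in 4x zT LOF embryos, against 104, 143, 145 and 141 CPM at stage 10+, 307, 365, 337 and 358 CPM at stage 11+ and 215, 212, 200.3 and 193 CPM at stage 12+ in cMO embryos. No 4x zT LOF library at stage 11+ reached the lowest at stage 12+. In cMO embryos all 4 libraries at stage 11+ were the highest, which the choice favours, so nothing is read from the difference. The log2 fold changes were 1.34 ± 0.10 and −0.66 ± 0.10 (edgeR adjusted p = 9.42e-07 and 6.07e-05) for *fgfr2* and 0.79 ± 0.07 and −0.21 ± 0.07 (edgeR adjusted p = 3.14e-06 and 0.0144) for *fgfr4*, in each case over stage 10+ and over stage 12+. For *fgfr4* the direction against stage 12+ was the opposite by mean CPM. Of the 28 Fgf and Erk feedback genes, 14 were higher and 4 lower than at stage 10+, and 5 higher and 19 lower than at stage 12+.

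Ectodermal and neural members were divided. *foxi4.2*, a forkhead gene of the early ectoderm, had 194, 180.0, 225 and 199 CPM at stage 10+, 422, 471, 468 and 399 CPM at stage 11+ and 202, 229, 230.4 and 205 CPM at stage 12+ in 4x zT LOF embryos, against 205, 208, 238 and 247 CPM at stage 10+, 445, 419.8, 418 and 411 CPM at stage 11+ and 119.8, 118, 116 and 108 CPM at stage 12+ in cMO embryos. Its peak was kept (log2 fold changes 1.34 ± 0.08 over stage 10+ and 0.76 ± 0.08 over stage 12+, edgeR adjusted p = 2.54e-07 and 3.91e-06), although at stage 12+ every 4x zT LOF library stood above every cMO library. *gemc1* had 5.18, 6.07, 4.30 and 4.50 CPM at stage 10+, 19.9, 29.4, 23.8 and 16.4 CPM at stage 11+ and 1.24, 2.92, 1.63 and 2.83 CPM at stage 12+ in 4x zT LOF embryos, and its log2 fold changes, 2.35 ± 0.28 and 3.11 ± 0.30 (edgeR adjusted p = 3.51e-05 and 1.32e-06), included the largest over stage 12+ of all members. *tfap2a*, an AP-2 factor of epidermis and neural plate border, had 316, 320.1, 318 and 356 CPM at stage 10+, 499.6, 567, 578 and 547 CPM at stage 11+ and 529, 596, 631 and 615 CPM at stage 12+ in 4x zT LOF embryos, which gave 0.93 ± 0.07 over stage 10+ and −0.38 ± 0.07 over stage 12+ (edgeR adjusted p = 9.42e-07 and 3.11e-04).

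The proneural gene *neurog2* had 8.71, 6.74, 11.8 and 8.48 CPM at stage 10+, 17.3, 23.2, 20.2 and 22.4 CPM at stage 11+ and 31.0, 37.4, 30.0 and 37.4 CPM at stage 12+ in 4x zT LOF embryos, against 9.07, 6.96, 8.30 and 9.01 CPM at stage 10+, 28.7, 34.8, 26.1 and 38.9 CPM at stage 11+ and 21.0, 19.7, 25.0 and 24.3 CPM at stage 12+ in cMO embryos. In 4x zT LOF embryos the stage 12+ libraries were all above those of stage 11+, with log2 fold changes of 1.41 ± 0.16 over stage 10+ and −0.97 ± 0.16 over stage 12+ (edgeR adjusted p = 2.13e-05 and 1.22e-04). The order in cMO embryos was the reverse, which the choice favours, so nothing is read from that difference. *foxd3*, a forkhead repressor with a later part in neural crest, had 35.6, 40.1, 29.2 and 23.1 CPM at stage 11+ and 26.8, 34.8, 26.3 and 21.5 CPM at stage 12+ in these embryos, where the libraries overlapped (log2 fold change −0.04 ± 0.19, edgeR adjusted p = 0.866). The POU factor gene *oct91*, which helps to hold cells in an uncommitted state, had 518, 532, 543 and 516 CPM at stage 10+, 1083, 1135, 1069 and 1054 CPM at stage 11+ and 1045, 1137, 1016 and 1069.7 CPM at stage 12+ in 4x zT LOF embryos. Its log2 fold changes were 1.23 ± 0.05 over stage 10+ and −0.24 ± 0.05 over stage 12+ (edgeR adjusted p = 4.44e-08 and 0.0014), but the libraries of stages 11+ and 12+ overlapped, and by mean CPM, which uses library totals, stage 11+ was the higher, so the direction against stage 12+ rests on the scaling by TMM. Of 35 epidermis and ciliated cell genes, 28 were higher and 3 lower than at stage 10+, and 5 higher and 27 lower than at stage 12+. Of 44 neural plate and neural crest genes, 28 were higher and 6 lower than at stage 10+, and 4 higher and 32 lower than at stage 12+.

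In the endoderm, *gata5*, a zinc finger factor that specifies endoderm, had 46.4, 33.7, 41.4 and 25.8 CPM at stage 10+, 89.2, 58.2, 89.8 and 65.6 CPM at stage 11+ and 48.5, 49.0, 57.3 and 61.3 CPM at stage 12+ in 4x zT LOF embryos, against 44.2, 36.6, 38.7 and 33.6 CPM at stage 10+, 75.4, 50.6, 63.4 and 51.0 CPM at stage 11+ and 25.7, 25.4, 26.1 and 27.4 CPM at stage 12+ in cMO embryos. It was higher than at stage 10+ by 1.23 ± 0.19 (edgeR adjusted p = 2.24e-04) and not called against stage 12+ (0.22 ± 0.19, edgeR adjusted p = 0.31). Of the 25 endoderm genes, 16 were higher and 4 lower than at stage 10+, and 8 higher and 12 lower than at stage 12+.

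Other members with high ratios encode enzymes, transporters and homeobox factors. *slc13a3*, a sodium-dependent dicarboxylate transporter, had 19.6, 15.7, 20.3 and 14.3 CPM at stage 10+, 82.6, 82.4, 110.0 and 61.4 CPM at stage 11+ and 79.4, 66.3, 65.1 and 51.7 CPM at stage 12+ in 4x zT LOF embryos, and 58.8, 44.9, 98.2 and 52.4 CPM at stage 10+, 239, 199, 271 and 179.8 CPM at stage 11+ and 112, 83.2, 114 and 66.4 CPM at stage 12+ in cMO embryos. The rise to stage 11+ was kept (2.46 ± 0.20, edgeR adjusted p = 1.59e-06) with all libraries below the cMO libraries at stages 10+ and 11+, and stages 11+ and 12+ were not called different (0.10 ± 0.18, edgeR adjusted p = 0.664). *adamts1*, a secreted metalloproteinase, had 144, 146, 132 and 115 CPM at stage 10+, 323, 340.4, 278 and 274 CPM at stage 11+ and 119, 179.8, 82.4 and 141 CPM at stage 12+ in 4x zT LOF embryos, with a peak of 1.37 ± 0.20 and 0.95 ± 0.20 (edgeR adjusted p = 1.24e-04 and 8.21e-04) over stages 10+ and 12+. *cmtm8*, a membrane protein of the MARVEL type, had 208, 186, 183 and 149 CPM at stage 11+ and 16.1, 41.9, 25.4 and 49.8 CPM at stage 12+, a log2 fold change of 2.18 ± 0.29 (edgeR adjusted p = 2.24e-05), after 90.9, 79.4, 89.7 and 64.7 CPM at stage 10+.

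*crx*, an Otx-type homeobox gene, and *cyp27c1*, a cytochrome that converts retinoids in zebrafish, also kept the peak, with 1.15 ± 0.12 and 0.49 ± 0.12 for *crx* (edgeR adjusted p = 1.19e-05 and 0.00264) and 1.52 ± 0.20 and 0.42 ± 0.20 for *cyp27c1* (edgeR adjusted p = 7.31e-05 and 0.0787) over stages 10+ and 12+. The last of these was not called without replicate 1 (0.43) or replicate 3 (0.14). *pacsin1*, which encodes an adaptor of endocytosis, was the member whose level in 4x zT LOF embryos was highest at stage 10+: it had 9.02, 5.43, 5.06 and 5.38 CPM at stage 10+, 6.82, 4.32, 3.90 and 3.93 CPM at stage 11+ and 1.68, 0.807, 1.35 and 1.61 CPM at stage 12+ in 4x zT LOF embryos. The stage 11+ libraries overlapped those of stage 10+ (−0.20 ± 0.28, edgeR adjusted p = 0.601) and stood above those of stage 12+ (1.54 ± 0.29, edgeR adjusted p = 4.41e-04). The zinc finger gene *insm2* had the largest log2 fold change the other way, −1.34 ± 0.44 over stage 12+ (edgeR adjusted p = 0.0168), on levels of 1.17, 1.68, 0.991 and 0.436 CPM at stage 11+ and 2.23, 3.91, 1.23 and 1.58 CPM at stage 12+, where the libraries overlapped.

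Intron counts gave another picture of the same 12 libraries. Introns of 112 members could be tested, 123 having a row in the intron files, and the other 38 were left out of this comparison. Compared with stage 10+, the introns of 45 members were higher at stage 11+ and those of 7 lower, against 19.7% and 18.7% of the 12223 genes tested, and the median log2 fold change was 0.28. Compared with stage 12+, the introns of 102 members were higher at stage 11+ and of 0 lower, against 30.3% and 31.8% of all genes, with a median of 1.36, against −0.01 over all genes. The exons of the same 112 members had medians of 1.00 over stage 10+, with 96 higher, and of 0.01 over stage 12+, with 26 higher and 27 lower. The decline after mid-gastrula was therefore called in most members by introns and in a minority by exons. An intron peak was called in 42 of the 112 (37.5%), against 3.38% of all genes. Of the 42, 30 had no exon peak, a share that was not computed for all genes.

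For 22 members the introns were called higher and the exons lower at stage 11+ than at stage 12+, and the intron log2 fold change was above that of the exons in 111 of 112 members over stage 12+ and in 7 of 112 over stage 10+. How often this holds over all genes was not computed, so it is not read as particular to the members. Of the stage 11+ level, a median of 42.8% of intron CPM and 82.9% of exon CPM was left at stage 12+ in 4x zT LOF embryos, and 37.2% and 60.5% in cMO embryos. The total of intron counts differs between stages, which bears on these values. In an alternative chosen after seeing the data, intron counts were scaled by the exon counts of their library. The introns of 58 members were then higher and of 7 lower at stage 11+ than at stage 12+ (8.17% of all genes higher), with a median of 0.56, against −0.80 over all genes, and 80 were higher and 2 lower than at stage 10+ (44.2% of all genes higher), with a median of 0.79, against 0.475. The intron peak was called in 43 under this scaling, against 1.6% of all genes.

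The retinoic acid gene *aldh1a2* shows the difference. Its introns had 462, 511, 504 and 589 CPM at stage 10+, 567, 566, 632 and 564 CPM at stage 11+ and 117, 187, 106 and 182 CPM at stage 12+ in 4x zT LOF embryos, scaled to the intron total of each library. The intron log2 fold change of stage 11+ was 2.11 ± 0.18 over stage 12+ (edgeR adjusted p = 2.45e-07) and 0.23 ± 0.17 over stage 10+ (edgeR adjusted p = 0.329), and the stage 10+ and 11+ libraries overlapped while all stage 12+ libraries lay lower. *oct91* had intron levels of 315, 287, 277 and 358 CPM at stage 10+, 355, 418, 304 and 362 CPM at stage 11+ and 136, 169.7, 145 and 171 CPM at stage 12+, so that all stage 12+ libraries lay below all others (1.35 ± 0.14, edgeR adjusted p = 1.66e-06). The introns of *gemc1* followed its exons, with 2.25 ± 0.26 over stage 10+ and 4.13 ± 0.29 over stage 12+ (edgeR adjusted p = 3.08e-05 and 5.19e-08).

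The introns of *t* are given apart, since some of the MOs against the Brachyury genes are directed at splicing. They had 1777, 1992, 1588 and 1289 CPM at stage 10+, 2256, 2640.0, 2232 and 2142 CPM at stage 11+ and 1768, 2375, 1688 and 2369.8 CPM at stage 12+ in 4x zT LOF embryos, against 391, 500.2, 429.8 and 631 CPM at stage 10+, 415, 586, 419 and 656 CPM at stage 11+ and 192, 256, 220.4 and 286 CPM at stage 12+ in cMO embryos. Every 4x zT LOF library stood above every cMO library at each stage. The part of the MOs against splicing in this difference was not tested.

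**Figure D3:**
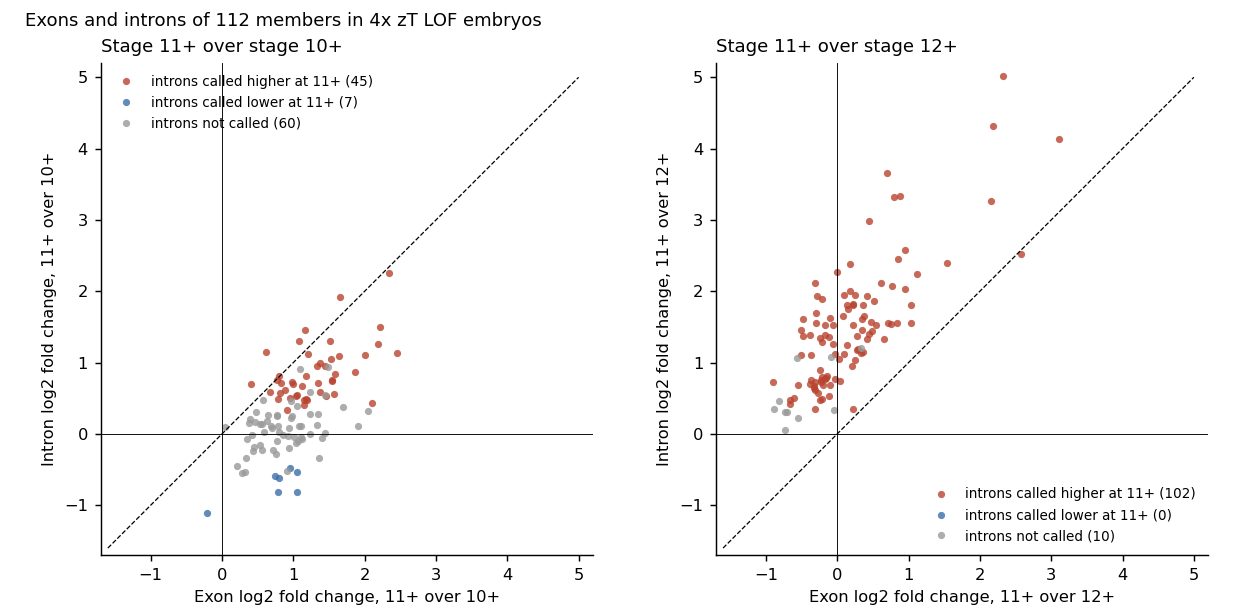
Log2 fold changes of exons (horizontal axes) and introns (vertical axes) of 112 members in 4x zT LOF embryos, for stage 11+ over 10+ (left) and over 12+ (right). Each point is 1 gene, colours give the intron call and the dashed line marks equal change; 111 of 112 points lie above it on the right and 7 on the left.

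Between 4x zT LOF and cMO embryos of the same stage the cMO libraries are those that chose the members, so the values here are descriptive and nothing is read from the counts. The median member stood at 79.9% of its cMO level in early gastrulae (range 24.4% to 152%), at 83.1% in mid-gastrulae (14.4% to 176%) and at 117% in late gastrulae (18.5% to 363%). At stage 10+ 2 members were called higher and 54 lower, against 9.37% and 8% of all genes. At stage 11+ 3 were called higher and 66 lower (16.8% and 16.8% of all genes), and at stage 12+ 64 higher and 14 lower (21.4% and 16.4%). All 4 LOF libraries lay below all 4 cMO libraries for 44, 37 and 13 members at stages 10+, 11+ and 12+ (5.61%, 8.62% and 18.3% of all genes), and above them for 5, 6 and 50 (10.6%, 15.6% and 14.9%). Called lower at stage 10+ or 11+ and higher at stage 12+ were 25 members, 6 were lower at all 3 stages, 1 was higher at all 3, and 30 were called at none. The shares of all genes with these combinations of calls were not computed. With the replicate block 94 members were called at stage 10+, against 33.3% of all genes. Without replicate 3 or replicate 4, 30 and 31 were called at stage 10+, and without replicate 4, 43 at stage 11+, with no share of all genes given for these fits.

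**Figure D4:**
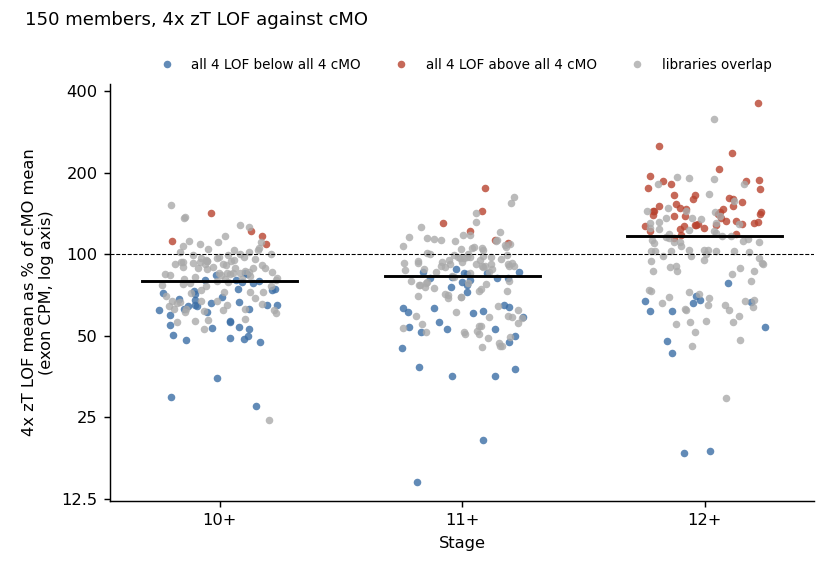
Mean exon CPM in 4x zT LOF embryos as a percentage of the cMO mean (vertical axis, log scale) for the 150 members at stages 10+, 11+ and 12+. Each point is 1 gene, coloured by whether the 4 LOF and 4 cMO libraries overlap, the dashed line is 100% and the bars are medians (79.9%, 83.1% and 117%).

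Among members with a symbol, the lowest shares of the cMO level at stage 11+ were those of *insm2* (14.4%), *tmprss9* (20.5%), *pacsin1* (35.5%), *grin2c* (35.7%), *slc13a3* (37.8%) and *mertk* (38.4%). *tmprss9*, a membrane-bound serine protease, had 10.3, 7.51, 10.2 and 9.48 CPM at stage 10+, 13.8, 20.1, 14.9 and 8.40 CPM at stage 11+ and 4.53, 8.36, 7.71 and 5.77 CPM at stage 12+ in 4x zT LOF embryos, against 20.7, 27.7, 41.6 and 36.6 CPM at stage 10+, 60.8, 78.5, 78.5 and 61.0 CPM at stage 11+ and 38.0, 40.0, 36.1 and 26.7 CPM at stage 12+ in cMO embryos. Its libraries did not overlap at any stage, and its level was 29.6% at stage 10+, 20.5% at stage 11+ and 18.7% at stage 12+. *insm2* had 1.17, 1.68, 0.991 and 0.436 CPM at stage 11+ in 4x zT LOF embryos and 7.09, 9.19, 7.95 and 5.35 CPM in cMO embryos, without overlap. *pacsin1* had 1.68, 0.807, 1.35 and 1.61 CPM at stage 12+ in 4x zT LOF embryos and 14.8, 4.89, 5.74 and 3.96 CPM in cMO embryos, 18.5% of the cMO level.

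The highest shares at stage 11+ among members with a symbol were those of *angpt4* (163%), *adamts1* (145%), *s1pr5* (142%), *sla* (132%), *acer1* (131%) and *gata5* (126%). The groups overlapped for *angpt4*, an angiopoietin ligand, in which replicate 2 stood apart with 135 CPM at stage 11+ and 231 CPM at stage 12+ in 4x zT LOF embryos, while the other 3 libraries had 53.5 to 61.3 CPM at stage 11+ and 50.4 to 91.2 CPM at stage 12+. At stage 12+ *gemc1* stood at 363%, with 1.24, 2.92, 1.63 and 2.83 CPM in 4x zT LOF embryos and 0.962, 0.451, 0.588 and 0.373 CPM in cMO embryos, so both groups were near their lowest level and did not overlap. *ptgs2*, a prostaglandin synthase, had 337, 449.6, 299 and 304 CPM at stage 12+ in 4x zT LOF embryos, against 179, 209.6, 149 and 174 CPM in cMO embryos, and overlapped at stage 11+ with 365, 389, 444 and 283 CPM against 287, 339.7, 347 and 342 CPM. Of its cMO level, *cyp27c1* stood at 97.6%, 113% and 251% at the 3 stages in order, and *cyp26a1* at 142%, 105% and 161%.

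The signal experiment, in other libraries and at an earlier stage, was not used by the choice. All 150 members were tested. In control embryos at stage 9+, 24 members had a mean under 5 CPM and 19 had one above their cMO mean at stage 11+. Each LOF is compared with the same 3 control libraries, so the comparisons are not independent of each other. Wnt LOF left 2 members higher and 18 lower, against 0.262% and 0.887% of the 16001 genes tested (1.15% either way). For Nodal LOF the counts were 0 higher and 16 lower, against 0.0125% and 0.669% of all genes (0.681% either way), and for Nodal/BMP LOF 1 and 11, against 0.0687% and 0.506% (0.575%). The combinations with Wnt followed: Wnt/BMP LOF had 0 higher and 27 lower, against 0.312% and 1.43% of all genes (1.74% either way), Wnt/Nodal LOF 3 and 45, against 0.287% and 2.1% (2.39%), and Wnt/Nodal/BMP LOF 1 and 56, against 0.369% and 2.62% (2.99%). The median log2 fold change of the members was −0.30 after Wnt LOF, −0.47 after Nodal LOF and −0.34 after BMP LOF. It was −0.40 for Nodal/BMP, −0.49 for Wnt/Nodal, −0.57 for Wnt/BMP and −0.63 for the triple LOF, with 0.00 to 0.01 over all genes. BMP LOF called 0 members and 0% of all genes by edgeR and 0 members by DESeq2, with 6 members and 217 of all genes at an unadjusted p under 0.05. Of the 49 members without a symbol 25 were lower after the triple LOF and 20 after Wnt/Nodal LOF, against 31 and 25 of the 101 with one. The counts were 5 and 13 after Wnt, 3 and 13 after Nodal, 1 and 10 after Nodal/BMP and 8 and 19 after Wnt/BMP LOF. Median log2 fold changes after the triple LOF were −1.66 without and −0.46 with a symbol. Whether any LOF groups differed from each other was not tested.

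The counts at stage 9+ depend on the fit and on single replicates. With the replicate block, 51 members were called for Wnt (3.97% of all genes), 53 for Nodal (2.28%), 50 for Nodal/BMP (2.82%) and 65 for Wnt/BMP LOF (7.59%). Without replicate 2, the calls came to 1 for Wnt, 0 for Nodal, 1 for Nodal/BMP, 14 for Wnt/Nodal, 1 for Wnt/BMP and 12 for the triple LOF. Without replicate 3 they came to 8 for Wnt and 0 for both Nodal and Nodal/BMP LOF, and without replicate 1 to 9 for Wnt and 16 for Wnt/BMP LOF. Shares of all genes are not given for the fits without a replicate. The members described here with values account for 72 calls at stage 9+, of which 9 were kept without each replicate in turn: those of *cer1*, *lhx1* and *admp* in Wnt/Nodal and Wnt/Nodal/BMP LOF, of *crx* and *aldh1a2* in Wnt/Nodal LOF and of *adamts1* in Wnt/Nodal/BMP LOF. Without replicate 2, 59 of the 72 were lost.

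Organizer genes were among the members with the largest changes. Summed levels of tissue markers moved as well, and their part in the results was not tested. The sum of 6 organizer genes, of which *lhx1* is a member, lay between 309.2 and 498.7 CPM after Wnt LOF, 265.8 and 325.9 CPM after Nodal LOF and 56.9 and 106 CPM after Wnt/Nodal LOF, against 1174 to 1551 CPM in controls. After Wnt/Nodal LOF that of 5 endoderm genes, of which *gata5* is a member, lay between 78.0 and 159.5 CPM, against 489.7 to 1015 CPM. The sum of 6 ectoderm genes, 2 of them members, lay between 2013 and 2571 CPM after Wnt LOF, against 871.7 to 1493 CPM in controls. *cer1* had 0, 0.239 and 0.0505 CPM in Wnt LOF, 0.292, 0.819 and 0.0532 CPM in Nodal LOF, 0.562, 0.679 and 0.103 CPM in Nodal/BMP LOF, 0, 0.186 and 0.149 CPM in Wnt/BMP LOF and 37.2, 26.8 and 9.06 CPM in BMP LOF embryos, against 65.9, 30.8 and 18.5 CPM in controls. In Wnt/Nodal and Wnt/Nodal/BMP LOF it had 0 counts in all 3 libraries, against 4045 counts in the controls, which with a floor of 3 counts over the group is at least 1242-fold and at least 1638-fold lower. Every library of these groups other than BMP LOF lay below every control library. The log2 fold change was −8.54 ± 1.22 after Wnt LOF and −6.69 ± 1.08 after Nodal LOF (edgeR adjusted p = 0.00202 and 0.0116), and −0.68 ± 0.82 in BMP LOF (edgeR adjusted p = 1), where the libraries overlapped the controls.

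*frzb2* had 0 counts in the 3 Wnt/BMP LOF libraries, against 1910 counts (35.4, 13.0 and 6.55 CPM) in controls, at least 616-fold lower with the same floor. It had 1 count in Wnt LOF, a ratio of control to LOF of 1995 with a counting interval of 358 to 7.88e+04, and 1 count also after Wnt/Nodal LOF and 3 after the triple LOF. In Nodal LOF it had 0.771, 1.40 and 0.160 CPM (−4.61 ± 0.95, edgeR adjusted p = 0.0413). *admp* had 0.227, 1.22 and 0.783 CPM in Wnt LOF and 25.1, 34.5 and 50.3 CPM in Nodal LOF, against 66.7, 78.0 and 105 CPM in controls. The log2 fold changes were −6.78 ± 0.85 (edgeR adjusted p = 2.21e-04) and −1.21 ± 0.65 (edgeR adjusted p = 1), so the gene was called in Wnt LOF and not in Nodal LOF, though all 3 Nodal LOF libraries lay below the controls. *lhx1* had 7.63, 37.5 and 17.9 CPM in Wnt LOF, 6.78, 9.98 and 2.79 CPM in Nodal LOF and 0.722, 2.11 and 0.853 CPM in Wnt/Nodal LOF, against 156, 89.5 and 70.4 CPM in controls. It was called in Nodal LOF (−4.05 ± 0.80, edgeR adjusted p = 0.0262) and Wnt/Nodal LOF (−6.46 ± 0.92, edgeR adjusted p = 4.06e-04), and in Wnt LOF only with the replicate block (−2.37 ± 0.74, edgeR adjusted p = 0.272 without and 0.0432 with it).

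Among Nodal and organizer genes as a list, 14 of 42 were lower after Wnt LOF, 14 after Nodal LOF and 28 each after the Wnt/Nodal and the triple LOF, with 1 higher after Wnt LOF and 0 in the other 3. In the endoderm *gata5* had 4.07, 4.68 and 2.45 CPM in Nodal LOF and 3.57, 11.8 and 11.7 CPM in Wnt LOF, against 36.2, 19.8 and 10.8 CPM in controls. It was called in Nodal LOF (−2.62 ± 0.54, edgeR adjusted p = 0.031) and not in Wnt LOF (−1.35 ± 0.51, edgeR adjusted p = 0.565), where 2 of the 3 libraries were within the range of the controls. Of 24 endoderm genes tested, 13 were lower in Nodal LOF and 3 in Wnt LOF, and 0 higher in either. *pacsin1* had 3.53, 2.57 and 1.70 CPM in Nodal LOF, against 24.8, 8.29 and 10.5 CPM in controls (−2.52 ± 0.51, edgeR adjusted p = 0.0289).

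Mesoderm members were lower in several groups. *rspo2* had 0.162, 0.620 and 0.556 CPM in Wnt LOF and 0.345, 0.527 and 0.452 CPM in Nodal LOF, against 6.60, 2.18 and 1.50 CPM in controls (−2.98 ± 0.65 and −3.01 ± 0.66, edgeR adjusted p = 0.032 and 0.0482). *t* had 41.2, 102 and 91.8 CPM after Wnt/Nodal LOF and 25.3, 83.7 and 89.7 CPM after the triple LOF, against 599.5, 375 and 295 CPM in controls, without overlap (−2.48 ± 0.64 and −2.72 ± 0.65, edgeR adjusted p = 0.0542 and 0.0275). In Wnt LOF alone *t* had 90.7, 272 and 223 CPM and was not called (−1.16 ± 0.62, edgeR adjusted p = 1). *wnt8a* was called in none of the 7 comparisons, with 96.8, 127 and 111 CPM in Wnt LOF and 65.1, 70.8 and 63.7 CPM in Nodal LOF, against 154, 104 and 85.9 CPM in controls. With the replicate block it was called in Nodal LOF, Nodal/BMP LOF and Wnt/Nodal/BMP LOF (edgeR adjusted p = 0.0965, 0.0642 and 0.0868).

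*crx* had 4.80, 18.0 and 9.09 CPM in Wnt LOF, 5.89, 7.99 and 8.94 CPM after Wnt/Nodal LOF and 17.8, 45.6 and 54.0 CPM after the triple LOF, against 366, 239 and 188 CPM in controls, all below the lowest control (−4.67 ± 0.60, −5.17 ± 0.62 and −2.80 ± 0.55, edgeR adjusted p = 2.46e-04, 6.32e-05 and 0.00585). *foxd3* had 0.974, 0.740 and 0.101 CPM in Wnt LOF, against 14.2, 9.05 and 3.87 CPM in controls (−3.95 ± 0.83, edgeR adjusted p = 0.0236). *slc13a3* had 4.06, 7.73 and 7.35 CPM in Wnt LOF, against 109.5, 31.8 and 23.3 CPM in controls, of which replicate 1 was far the highest (−3.16 ± 0.75, edgeR adjusted p = 0.054). *adamts1* and *aldh1a2* were lowered by less: *aldh1a2* had 131, 135 and 111 CPM in Wnt/Nodal LOF, against 365, 229.7 and 219 CPM in controls (−1.16 ± 0.19, edgeR adjusted p = 0.00205), and *adamts1* 47.6, 46.8 and 43.4 CPM in Wnt/Nodal/BMP LOF, against 234, 163 and 107 CPM (−1.92 ± 0.29, edgeR adjusted p = 6.59e-04).

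A few members were higher. *szl* had 85.1, 197 and 215 CPM in Wnt LOF and 85.1, 176 and 193 CPM in Wnt/Nodal LOF, against 38.8, 23.1 and 14.7 CPM in controls, with no overlap (2.65 ± 0.64 and 2.51 ± 0.64, edgeR adjusted p = 0.0609 and 0.0465). In Wnt/BMP LOF it had 30.0, 77.1 and 85.8 CPM (1.27 ± 0.61, edgeR adjusted p = 0.694) and in BMP LOF 11.7, 13.9 and 2.85 CPM (−1.46 ± 0.63, edgeR adjusted p = 1), and neither was called. Every BMP LOF library of *szl* nevertheless lay below every control library, whereas the Wnt/BMP LOF libraries overlapped the controls. *foxi4.2* had 514, 699 and 803 CPM in Wnt LOF and 443, 782 and 897 CPM in Wnt/Nodal LOF, against 274, 236 and 139 CPM in controls (1.59 ± 0.39 and 1.66 ± 0.39, edgeR adjusted p = 0.0651 and 0.0278). *cyp26a1* had 106, 200.2 and 115 CPM in Nodal/BMP LOF, 111, 172 and 107 CPM after Wnt/Nodal LOF and 103, 174 and 134 CPM after the triple LOF, against 47.3, 48.6 and 42.9 CPM in controls (1.58 ± 0.26, 1.46 ± 0.26 and 1.53 ± 0.26, edgeR adjusted p = 0.00658, 0.00317 and 0.00196). In Nodal LOF, with 92.7, 105 and 81.3 CPM, it was called only with the replicate block (0.98 ± 0.26, edgeR adjusted p = 0.139 without and 0.00309 with it). Without the block the *ventx* members were called in none of the 7 comparisons. With it, *ventx1.1* was called after Wnt LOF (log2 fold change without the block 0.69 ± 0.25, edgeR adjusted p = 0.0907), and all 3 were called after Nodal/BMP LOF (edgeR adjusted p = 0.0947, 0.0894 and 0.096 for *ventx1.1*, *ventx1.2* and *ventx2.1*), as was *ventx1.2* after Wnt/BMP and after the triple LOF (edgeR adjusted p = 0.0778 and 0.0565). *ventx1.2* had 26.6, 17.1 and 14.3 CPM in BMP LOF and 80.3, 70.0 and 85.4 CPM in Wnt LOF, against 74.3, 41.1 and 36.4 CPM in controls, with log2 fold changes of −1.41 ± 0.34 and 0.59 ± 0.33 (edgeR adjusted p = 1 and 1). Though not called, its BMP LOF libraries all lay below every control library, while those of Wnt LOF overlapped the controls.

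**Figure D5:**
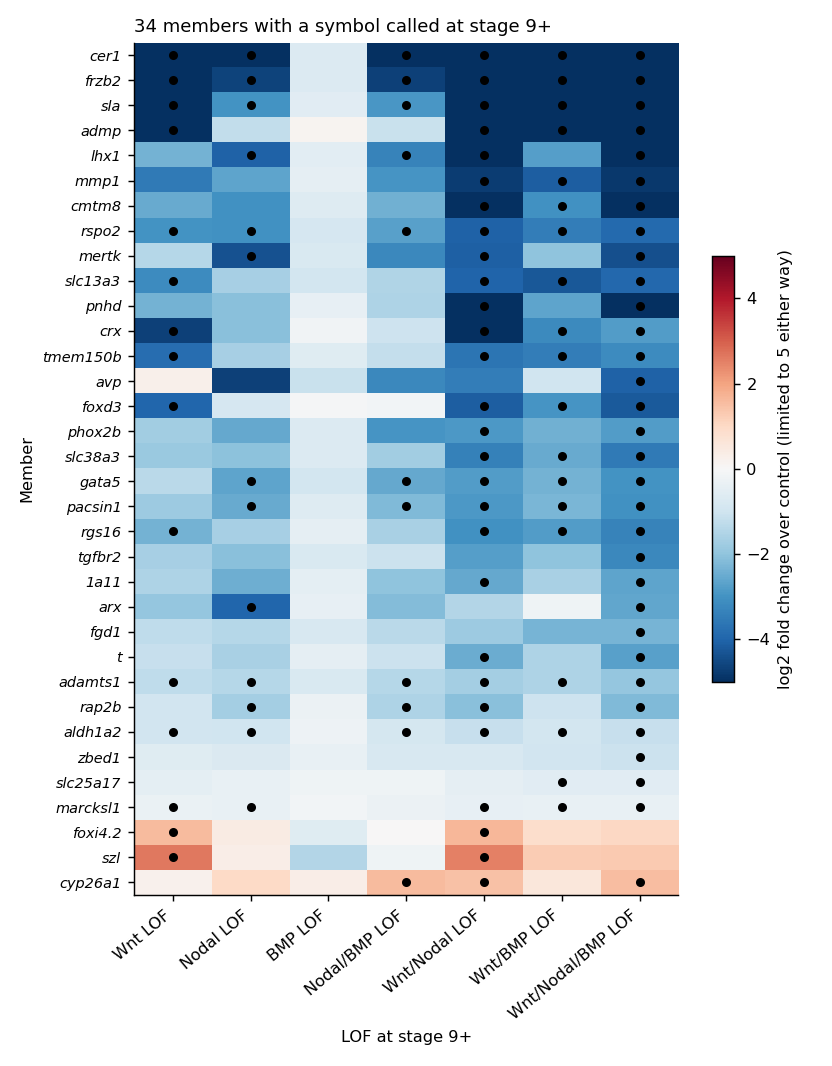
Log2 fold change over control at stage 9+ (colour, limited to 5 either way) of the 34 members with a symbol that were called in at least 1 of the 7 LOF comparisons (columns, 3 libraries a group, all against the same 3 controls). Rows are genes ordered by their mean fold change and a dot marks a call; *cer1* has the lowest mean, and *foxi4.2*, *szl* and *cyp26a1* are the rows with calls above the control.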

How the data were processed

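Polyadenylated RNA of whole embryos was sequenced, and the authors aligned the reads with STAR 2.5.3a (version per the submitters' processing notes) to the *X. tropicalis* assembly 7.1 with revised gene models 7.2 and counted them without regard to strand. The deposited files hold raw counts per gene, for exons and introns apart. For the nascent RNA the authors aligned reads to transcripts with Bowtie2 and deposited read counts.

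Here exon counts were tested with edgeR 4.0.16 in R 4.3.3 (quasi-likelihood test, TMM scaling, filterByExpr, Benjamini-Hochberg adjustment, calls at an adjusted p of at most 0.1 as in the study). The stage contrasts within 4x zT LOF embryos were fitted on the 12 4x zT LOF libraries alone, which the choice had not used. In the other main fits all 24 libraries of an experiment entered. Introns were fitted in the same way with their own scaling. CPM values use library totals. The fits were tested on simulated data with 200 changed genes. The simulated counts had a single fixed dispersion and no shared deviation of same-numbered libraries. They therefore check the code and not the error rate in these libraries. The members, gene lists and tests were chosen with earlier results of these data known. Named genes were those of the highest ratio, members of the lists, the largest changes in each comparison, the extremes between 4x zT LOF and cMO, and those at the edge of the set, with values for a subset of these. DESeq2 1.42.0, other scalings, filters, left-out replicates, introns and a replicate block were tried as alternatives.

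Same-numbered libraries deviated together: correlations of deviations from the group means were 0.545 to 0.885 between 4x zT LOF and cMO (12 pairs), against −0.506 to 0.183 for other numbers, 0.654 to 0.895 between 4x zT LOF stages (8 pairs) and 0.202 to 0.921 between signal LOF and control (21 pairs). The numbers were therefore taken as pairs in the blocked fit. No 2 libraries were copies of each other, the smallest mean squared difference being 13.8 times the counting noise within a group and 6.36 times between groups. Floors and counting intervals cover counting error only. A label spells the BMP inhibitor differently for Wnt/BMP LOF.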

Additional observations from a re-analysis of the deposited data

Results flagged for a closer look

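Of 192 groups of 4 libraries, 13 held a library far from the other 3, and chance gives about 1 in 20. Same-numbered libraries deviate together, so the groups of a gene are not independent. In cMO embryos at stage 12+ *cyp27c1* had 91.8 CPM in replicate 3, against 113 CPM in the nearest other. *insm2* had 0.794 CPM in replicate 3 of 4x zT LOF at stage 10+, against 0.445 CPM in the nearest other, and 1.85 CPM in replicate 3 of cMO at stage 10+, against 0.668 CPM. *ptgs2* had 287 CPM in replicate 1 of cMO at stage 11+, against 339.7 CPM, and *fgfr2* 104 CPM in replicate 1 of cMO at stage 10+, against 141 CPM. *angpt4* had 134.7 CPM in replicate 2 of 4x zT LOF at stage 11+, against 61.3 CPM, *crx* 431 CPM in replicate 3 of cMO at stage 10+, against 327 CPM, and *tfap2a* 356 CPM in replicate 4 of 4x zT LOF at stage 10+, against 320.1 CPM. *pacsin1* stood apart in replicate 1 in 5 groups, with 9.02 CPM in 4x zT LOF at stage 10+ (5.43 CPM in the nearest other), 6.82 CPM in 4x zT LOF at stage 11+ (4.32 CPM), 12.2 CPM in cMO at stage 10+ (9.20 CPM), 22.6 CPM in cMO at stage 11+ (10.5 CPM) and 14.8 CPM in cMO at stage 12+ (5.74 CPM). Replicate 1 was its highest library in 4x zT LOF at stage 12+ as well, without standing apart.

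The cMO libraries compared here are those that chose the members, so these values are descriptive and nothing is read from the counts. Over the 150 members, 37 had every same-numbered 4x zT LOF library below its cMO library at a stage and every one above it at another. The share of all genes was not computed. Of the 32 members given with values, which were picked in part for large changes, 15 did so. As shares of the cMO level at stages 10+ and 12+, these were *gemc1* (64.3% and 363%), *foxi4.2* (88.7% and 188%), *ptgs2* (85.3% and 195%), *ventx1.1* (61.1% and 129%), *fgfr2* (69.9% and 133%), *ventx1.2* (66.3% and 144%), *wnt8a* (48.5% and 110.1%), *szl* (80.8% and 166%), *oct91* (85.7% and 118%), *t* (76.2% and 148%), *crx* (78.2% and 127.5%), *ventx2.1* (73.7% and 125%), *tfap2a* (93.9% and 129%) and *admp* (117% and 61.9%). *neurog2* stood at 64.8% at stage 11+ and 151% at stage 12+.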

How the results depend on the processing

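Of the set itself, 95 members were chosen with DESeq2 size factors and 130 to 139 without a replicate. Leaving out a replicate gave 120 to 123 calls for stage 11+ against 10+, 63 to 73 against 12+ and 27 to 37 for the peak in 4x zT LOF embryos. Against cMO it gave 30 to 59 calls at stage 10+, 43 to 63 at 11+ and 59 to 78 at 12+, and against control 1 to 9 in Wnt, 0 to 14 in Nodal, 0 to 9 in Nodal/BMP, 14 to 40 in Wnt/Nodal, 1 to 22 in Wnt/BMP and 12 to 45 in Wnt/Nodal/BMP LOF. With the replicate block 109 members were called against stage 12+, 52 for the peak, 94 against cMO at stage 10+, 51 in Wnt, 53 in Nodal, 50 in Nodal/BMP and 65 in Wnt/BMP LOF. DESeq2's Wald test called 33 in Wnt, 40 in Nodal, 26 in Nodal/BMP and 46 in Wnt/BMP LOF. Fits of only the groups compared called 5 in Wnt, 3 in Wnt/BMP and 37 in Wnt/Nodal/BMP LOF. An adjusted p of at most 0.05 left 11 in Wnt LOF. Intron counts called 52 against stage 10+ (82 when scaled by exon counts, an alternative chosen after seeing the data), 24 and 39 against cMO at stages 10+ and 11+, and 26 in Nodal and in Nodal/BMP LOF. The other 120 counts stayed within 1.5 times. Apart from the replicate block and the introns against stage 10+, shares of all genes under these settings are not given. Those counts show only how far the calls of the members moved. The causes were not tested.

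By introns the direction turned for 25 gene values. Against stage 10+ these were *gata5* (−0.006) and *tfap2a* (−0.201), and against stage 12+ *ventx1.1* (0.509), *fgfr2* (0.475), *ventx1.2* (0.754), *szl* (0.308), *oct91* (1.35, or 0.546 scaled by exons), *t* (0.313), *aldh1a2* (2.11, or 1.324), *ventx2.1* (0.73) and *tfap2a* (0.7). Against cMO they were *ventx1.2* (0.316), *cyp26a1* (−0.002), *t* (1.751) and *aldh1a2* (0.017) at stage 10+, *fgfr2* (0.372), *ventx1.2* (0.741), *oct91* (0.281), *t* (2.206), *aldh1a2* (0.237), *ventx2.1* (0.056) and *tfap2a* (0.207) at stage 11+, and *aldh1a2* (−0.002) at stage 12+. Depth limits members near 1 CPM, such as *insm2* at stage 11+ in 4x zT LOF embryos.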

Other observations

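Nascent RNA, with 1 library of a kind per stage and so no replicate, gives values for the members that no comparison above used. Enrichment here is the ratio of 4sU to input counts, each divided by a size factor of its library (median of ratios over genes, as in DESeq2). At stage 8+ the median enrichment was 3.78 over the 100 members with at least 10 input counts, against 0.764 over all genes, and 86 of the 100 were above the median of all genes. At stage 10+ it was 6.31 over 128 members, against 0.684, and 122 were above. With no minimum and a pseudocount of 1 the medians were 5.57 over the members and 1.79 over all genes at stage 8+, and 6.51 and 1.63 at stage 10+. Members with a symbol had a median of 6.26 at stage 10+ and those without 6.34. *t*, the Brachyury gene, had an enrichment of 18.7 at stage 8+ and 10.5 at stage 10+, *wnt8a* 17.0 and 6.52, *admp* 16.7 and 9.75, *ventx1.2* 1.86 and 5.37 and *aldh1a2* 1.25 and 4.24. The 4sU libraries were shallow, with 888940 and 1538052 reads on genes, against 7884062 and 6470826 in the inputs, and 95.5% and 91.3% of their reads were unmapped, against 39.5% and 50.4%.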
